A study of Homo sapiens with 8 samples.

Results

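The genes that make cholesterol and fatty acids were followed in HuCCT1, an established human cholangiocarcinoma (bile duct cancer) cell line, after knockdown of YAP1. In the YAP shRNA group the cells carried 1 shRNA against YAP1, labelled YAP shRNA 1, and in the control shRNA group a scrambled shRNA. Both groups received doxycycline at 100 ng/ml, begun 3 days before seeding, to induce the shRNA, and each had 4 Affymetrix expression arrays, 8 in all. With 1 hairpin, the loss of YAP1 and any other effect of that hairpin cannot be told apart, and since the labels do not tell whether the 4 replicates came from different cultures, the p-values cover the spread of these arrays alone, which may be technical. In the title the series is one of overexpression, but its design text and labels describe a knockdown. These are bulk samples, in which a change in how many cells express a gene and a change in RNA per cell cannot be told apart.

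The list held 40 genes, chosen by name for their place in lipid synthesis. Of these, 35 had a probe set annotated to that gene alone and were measured, among 19775 genes in all. They comprise 4 regulators, 17 genes of the sterol arm and 14 genes of the fatty acid arm. CYP51A1 of the sterol arm and ELOVL1 and FADS1 of the fatty acid arm had 2, 2 and 3 probe sets that carry several gene symbols, and FDFT1 and ACSL3 had no probe set named to them in the annotation used here, so no value is given for these 5 genes. Where a gene had several probe sets, the one with the highest mean over the 8 arrays stands for it. Values are log2 expression as deposited, and a fold change is YAP shRNA over control shRNA.

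Cholesterol is built from acetyl-CoA through mevalonate, isoprenoid units, squalene and lanosterol. Fatty acids are built from the same acetyl-CoA through malonyl-CoA and palmitate, which is then elongated, desaturated, activated to acyl-CoA and joined to glycerol. Both arms are known to be driven by the sterol regulatory element-binding proteins (SREBPs), the products of SREBF1 and SREBF2. SCAP escorts these membrane-bound precursors to the Golgi for cleavage, and the INSIG proteins hold them back in the endoplasmic reticulum when sterols are plentiful. The SREBF1 product is best known for fatty acid genes and the SREBF2 product for cholesterol genes.

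The promoters of 3 members are shown: a gene for the factor itself, a gene that rose and a gene that fell. All 3 carry the CCAAT box, which NF-Y, a partner of the SREBPs, is known to bind. Of the 3, only SREBF2 carries a match to the sterol response element core, which SREBPs are known to bind. Each line gives the 250 bases before the RefSeq start of the gene (GRCh38.p14), 5′ to 3′ on the gene's strand, at chr22:41832855-41833104 (+) for SREBF2, chr10:100346983-100347232 (+) for SCD and chr6:53348951-53349200 (-) for ELOVL5. Capitals mark matches, on either strand, to the sterol response element core TCACNCCAC and to the CCAAT box, which reads ATTGG on the opposite strand.
SREBF2: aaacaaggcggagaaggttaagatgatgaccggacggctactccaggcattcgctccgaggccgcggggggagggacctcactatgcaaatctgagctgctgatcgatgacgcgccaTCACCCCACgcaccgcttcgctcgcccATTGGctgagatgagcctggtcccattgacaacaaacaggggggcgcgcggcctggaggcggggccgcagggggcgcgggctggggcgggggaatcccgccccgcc
SCD: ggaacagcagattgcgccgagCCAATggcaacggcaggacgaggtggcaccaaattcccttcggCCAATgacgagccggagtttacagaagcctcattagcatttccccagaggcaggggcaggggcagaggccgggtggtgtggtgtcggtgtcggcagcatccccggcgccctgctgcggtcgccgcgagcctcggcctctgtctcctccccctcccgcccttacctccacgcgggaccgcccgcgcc
ELOVL5: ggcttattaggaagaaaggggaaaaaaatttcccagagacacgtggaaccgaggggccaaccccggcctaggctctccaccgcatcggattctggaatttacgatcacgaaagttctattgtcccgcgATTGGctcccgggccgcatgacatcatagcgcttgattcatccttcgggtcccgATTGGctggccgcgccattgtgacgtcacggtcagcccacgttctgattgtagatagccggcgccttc

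The SREBF2 window holds 1 match to the sterol response element core, beginning 133 bases before the start, and 1 CCAAT box beginning 106 bases before it. The SCD window holds 2 CCAAT boxes, at 229 and 186 bases, and the ELOVL5 window 2, at 122 and 68 bases. RefSeq windows running from 250 bases before to 50 bases after a start were given for 36 of the 40 genes, 53 windows in all, and none for ACAT2, FASN, FDFT1 and SQLE. The sterol response element core stood in 2 of the 53 windows, those of SREBF2 and 1 of ACSL1, or 3.77%, against 1.13% of all 35116 windows. A CCAAT box stood in 31 of the 53, or 58.5%, against 34.6% of all windows. The TEAD motif GGAATG, bound by the partners of YAP, stood in 8 of the 53, or 15.1%, against 14.03% of all windows, and among the called genes it was found for LPIN1 and ACSL1. By gene, a CCAAT box was found for 27 of the 36, among them members that were not called. SCD and ELOVL5 were picked for display, so its presence in both says nothing about the direction of change.

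YAP1 itself checks the labels. It stood at 10.40, 10.55, 10.51 and 10.54 on the YAP shRNA arrays, against 12.59, 12.61, 12.77 and 12.60 on the control shRNA arrays, a 4.41-fold fall (log2 fold change -2.14, SE 0.0564; limma adjusted p = 6.15e-07), and its other probe sets gave -2.23 and -2.22. Of 10 measured biliary epithelial markers, 3 rose and 0 fell, or 30.0%, where 16.7% of all genes were called. Those that rose were CFTR by 1.07, CDH1 by 0.33 and KRT19 by 0.15. CFTR stood at 6.62 with YAP shRNA and 5.56 with control shRNA (limma adjusted p = 0.00128), and the mean of its probe sets gave 0.25. The KRT19 call was lost in 3 of 17 alternative settings. Of the 10, 7 (KRT7, KRT8, KRT18, KRT19, EPCAM, SOX9 and CDH1) stood above 12 in both groups. ONECUT1 and SPP1 stood at 5.17 and 4.11 with YAP shRNA and at 5.20 and 4.41 with control shRNA. Control shRNA replicate 4 stood apart, with a mean correlation to its group across genes of 0.9967, under 0.9978 to 0.9980 for the other control arrays and 0.9986 to 0.9988 for the YAP shRNA arrays. It was the lowest control array for 18 of the 35 members, or 51.4%, against 25.3% of all genes, and the highest for 10, or 28.6%, against 40.2%. Without it, all 11 members called below were still called. Among markers of other cell types, the counts higher and lower were 1 and 1 of 12 for hepatocytes, 3 and 1 of 6 for leukocytes, 1 and 0 of 8 for fibroblasts, 0 and 0 of 6 for endothelium and 0 and 1 of 6 for adipocytes. In the same order, 16.7%, 66.7%, 12.5%, 0% and 16.7% of the markers were called. Among hepatocyte markers, SERPINA1 rose by 0.19 and CPS1 fell by 0.50. The fibroblast marker COL1A1 rose by 0.52 and the adipocyte marker CIDEC fell by 0.28. The SERPINA1 and CIDEC calls were lost in 1 and 3 of 17 alternative settings. The leukocyte markers that rose were LYZ by 0.86, CD14 by 0.46 and CSF1R by 0.31, while PTPRC, the pan-leukocyte antigen CD45, fell by 0.22 at levels of 3.74 with YAP shRNA and 3.96 with control shRNA. The PTPRC call was lost in 11 of 16 alternative settings, with values as small as -0.04, the CSF1R call in 4 of 16, and the LYZ call in 1 of 17, at 0.49. The mean level of the 6 markers was 5.18 to 5.27 on YAP shRNA arrays and 4.95 to 5.10 on control shRNA arrays, and the part of these markers in the lipid results was not tested.

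Across the 35 members, 7 rose and 4 fell with YAP shRNA at a limma adjusted p below 0.05, or 31.4%, where 16.7% of all genes were called. In the fatty acid arm, 4 genes rose and 3 fell of 14. In the sterol arm, 1 rose and 1 fell of 17, or 11.8%, and the difference between the arms was not tested. Of all genes, 9.49% rose and 7.17% fell. Most members are bright: 32 of the 35 lay at or above the median level of all genes, 7.44, and 26.6% of the genes at or above that level were called. The changes were small, from -0.35 for ACSL4 to 0.46 for SREBF1, which rose 1.38-fold. The median log2 fold change was 0.045 in the sterol arm, 0.040 in the fatty acid arm and 0.013 over all genes. The median size, regardless of sign, was 0.214 in the fatty acid arm, 0.074 in the sterol arm and 0.092 over all genes. The 4 arrays of a group did not overlap those of the other for 17 members, 12 higher and 5 lower, where 24.3% of all genes did not overlap.

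**Figure D1:**
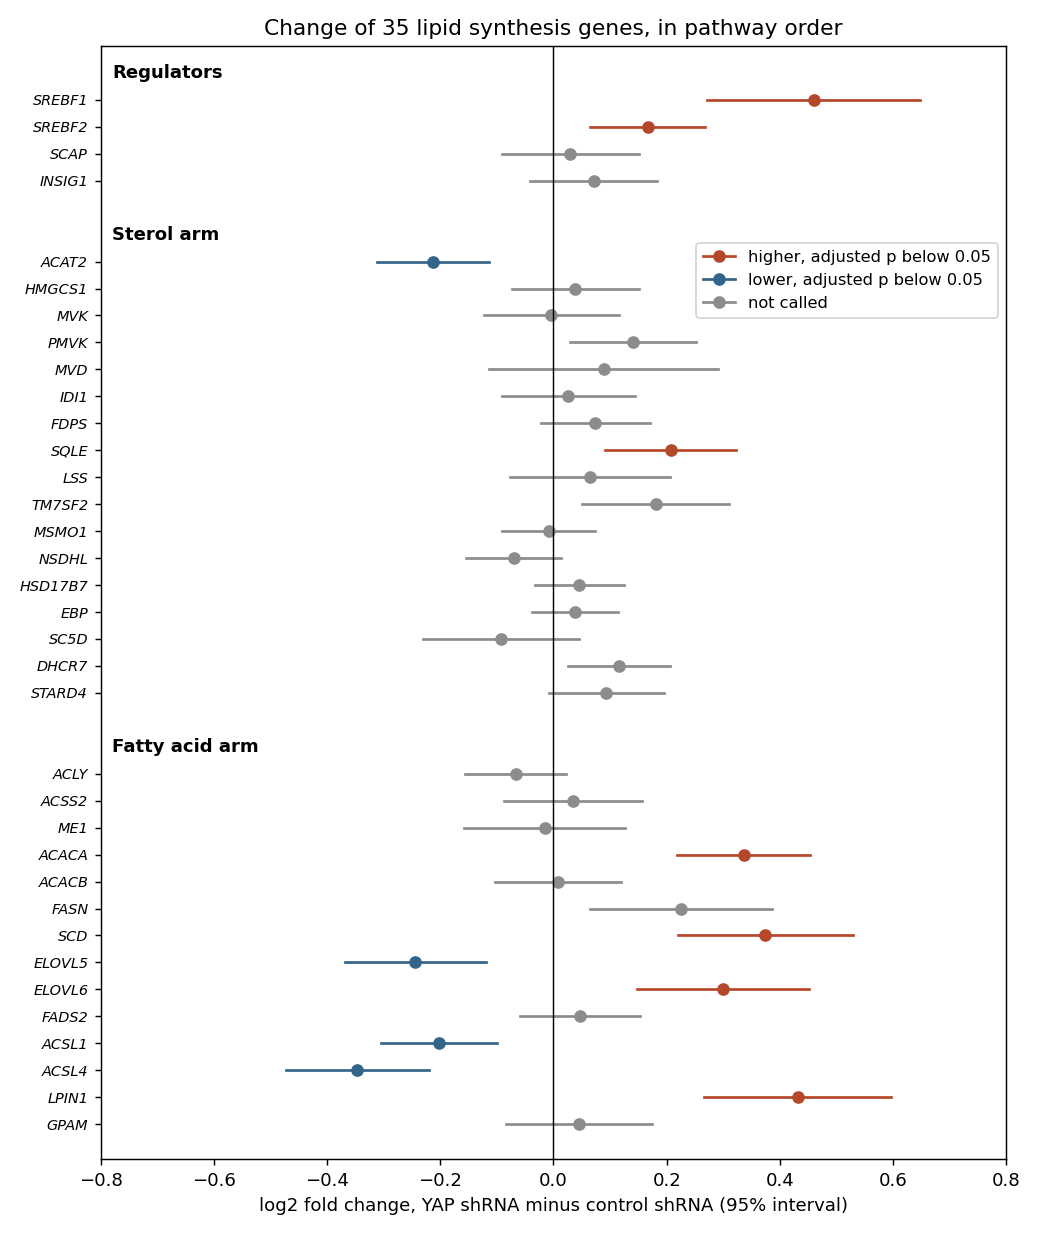
Log2 fold change (YAP shRNA minus control shRNA, x axis) of the 35 measured genes with its 95% interval, in pathway order from top to bottom; red genes rose, blue genes fell and grey genes were not called (limma adjusted p below 0.05, n = 4 arrays each). The called genes of the fatty acid arm lie on both sides of 0, from -0.35 for ACSL4 to 0.43 for LPIN1, while 15 of the 17 sterol genes were not called.

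Both transcription factor genes of the pathway rose. SREBF1 stood at 7.81, 7.58, 7.76 and 7.68 on the YAP shRNA arrays, against 7.31, 7.29, 7.36 and 7.03 on the control shRNA arrays. Every YAP shRNA array lay above every control array, and the lowest value was that of control shRNA replicate 4. The log2 fold change was 0.46 (SE 0.0825; limma adjusted p = 0.00594), or 0.39 without that array (limma adjusted p = 0.00384). A dimmer SREBF1 probe set, at 6.30 and 5.99, gave 0.31 and was not called when every probe set was tested (limma adjusted p = 0.0676).

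SREBF2 stood at 9.13, 9.01, 9.08 and 9.12 on the YAP shRNA arrays, against 8.97, 8.88, 8.87 and 8.96 on the control shRNA arrays. The groups did not overlap, but the lowest YAP shRNA array lay close to the highest control array. The log2 fold change was 0.17 (SE 0.0447; limma adjusted p = 0.0358). Its call was lost in 11 of 17 alternative settings, with values of 0.10 to 0.19, among them those without YAP shRNA replicate 1, 3 or 4 and without control shRNA replicate 2 or 3. Its other probe sets gave 0.13 and 0.0032.

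SCAP and INSIG1 were not called. SCAP stood at 9.11, 9.12, 9.08 and 9.19 on the YAP shRNA arrays and at 9.20, 9.07, 9.14 and 8.98 on the control shRNA arrays, a log2 fold change of 0.03 (95% interval -0.09 to 0.15). INSIG1, itself a known SREBP target, stood at 11.97, 12.00, 11.92 and 11.88 on the YAP shRNA arrays and at 11.86, 11.94, 11.90 and 11.78 on the control shRNA arrays, a log2 fold change of 0.07 (95% interval -0.04 to 0.18). The groups overlapped for both genes. INSIG2, the paralog of INSIG1, was counted with the further sterol genes below and rose by 0.34 (limma adjusted p = 0.000374). Of 7 genes, besides the INSIG genes and SCAP, that process or restrain the SREBPs, 1 rose and 1 fell. That is 28.6%, where 16.7% of all genes were called. MBTPS1, which encodes the first of the cleaving proteases, rose by 0.24 (limma adjusted p = 0.0154), and PRKAA2, a catalytic subunit of the AMP-activated kinase, fell by 0.21 (limma adjusted p = 0.0268). These calls were lost in 3 and 7 of 17 alternative settings.

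**Figure D2:**
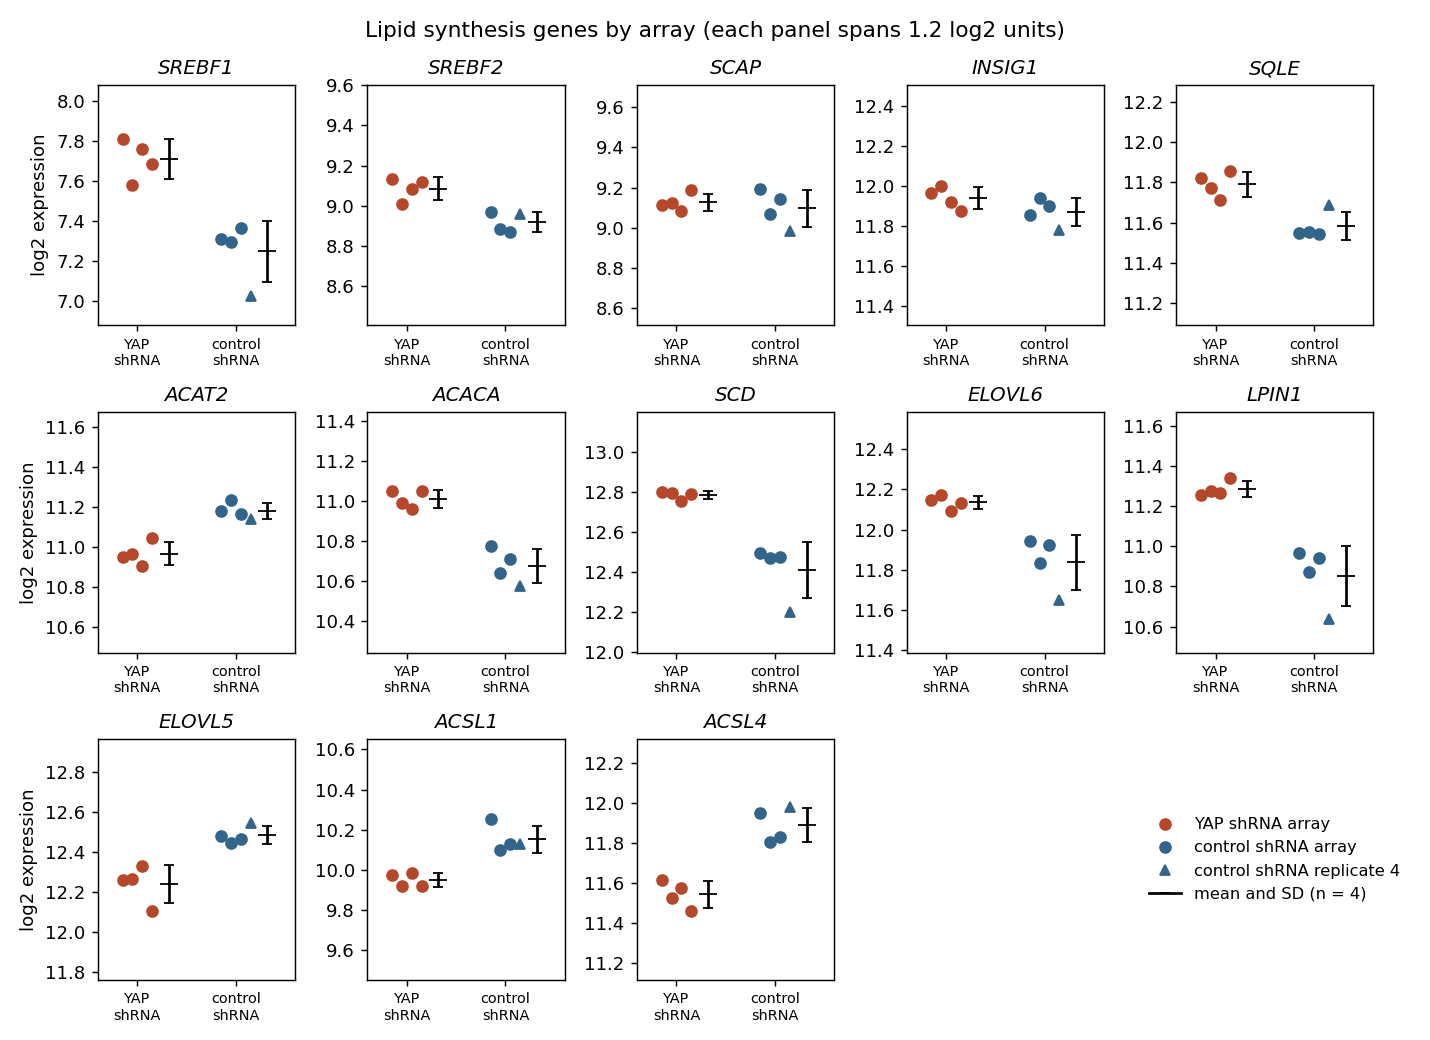
Log2 expression (y axis, 1.2 units in each panel) of the 4 regulators and the 9 other called genes on every array, with the mean and SD beside each group (n = 4); red is YAP shRNA, blue is control shRNA and the triangle is control shRNA replicate 4. The groups do not overlap except for SCAP and INSIG1, and the triangle is the lowest control point for SREBF1, SCAP, INSIG1, ACAT2, ACACA, SCD, ELOVL6 and LPIN1.

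In the sterol arm most steps moved little. At its entry, ACAT2, the cytosolic thiolase that joins acetyl-CoA units, fell. It stood at 10.95, 10.97, 10.91 and 11.04 on the YAP shRNA arrays, against 11.18, 11.24, 11.17 and 11.14 on the control shRNA arrays. Every YAP shRNA array was below every control array, a 1.16-fold fall (log2 fold change -0.21, SE 0.0434; limma adjusted p = 0.0109). ACAT2 had 1 probe set, so the files hold no other measure of it, and the call was lost in 2 of 16 alternative settings.

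None of the 4 other measured genes from acetyl-CoA units to isopentenyl units passed. HMGCS1, which makes HMG-CoA, had a log2 fold change of 0.04 (95% interval -0.07 to 0.15). The mevalonate kinase MVK stood at -0.0039 (95% interval -0.12 to 0.12) and the decarboxylase MVD at 0.09 (-0.11 to 0.29). PMVK, phosphomevalonate kinase, came nearest: its arrays did not overlap, at 10.76 to 10.90 with YAP shRNA and 10.61 to 10.75 with control shRNA, with a log2 fold change of 0.14 (limma adjusted p = 0.0913). IDI1 and FDPS, which make and join isoprenoid units toward squalene, gave 0.03 (-0.09 to 0.14) and 0.07 (-0.02 to 0.17). For HMGCS1, MVK, IDI1 and FDPS a change of 0.2 in either direction lies outside these intervals, which are those of the brightest probe set. The bound does not hold for every probe set. The other HMGCS1 probe set gave 0.14 (95% interval 0.01 to 0.27). Other MVK probe sets gave 0.04, -0.10 (-0.22 to 0.01) and 0.05. Dim IDI1 probe sets had intervals that reach past 0.2 in size. None of these was called.

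SQLE, squalene epoxidase, a rate-limiting enzyme late in the pathway, rose. It stood at 11.82, 11.77, 11.71 and 11.86 on the YAP shRNA arrays, against 11.55, 11.55, 11.54 and 11.69 on the control shRNA arrays. The highest control value was that of replicate 4, just below the lowest YAP shRNA value. The log2 fold change was 0.21 (SE 0.0507; limma adjusted p = 0.0242), or 0.24 without control shRNA replicate 4 (limma adjusted p = 0.00705). Its other probe sets gave 0.29, 0.14 and -0.0014. The call was lost in 8 of 17 alternative settings, among them those without YAP shRNA replicate 1, 2 or 4 and without control shRNA replicate 1, 2 or 3, with values of 0.17 to 0.21. SQLE lies on chromosome 8, where the median change over 716 genes was 0.07, above that of any other numbered chromosome; its part in the SQLE value was not tested. LSS, which closes squalene epoxide into lanosterol, gave 0.06 (95% interval -0.08 to 0.21).

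From lanosterol to cholesterol, 0 of 7 measured genes passed at the limma adjusted p of 0.05, and 2 of them, TM7SF2 and DHCR7, had an unadjusted p under 0.05. TM7SF2, a sterol reductase, had a log2 fold change of 0.18 with arrays at 7.29 to 7.44 for YAP shRNA and 7.10 to 7.30 for control shRNA (limma adjusted p = 0.0645). DHCR7, which carries out the last reduction, gave 0.12 with arrays that did not overlap (limma adjusted p = 0.0848). MSMO1 and NSDHL, which act in the removal of methyl groups, stood at -0.0088 and -0.07, HSD17B7 at 0.05, the isomerase EBP at 0.04 and the desaturase SC5D at -0.09. A dimmer SC5D probe set gave -0.32 and was not called (limma adjusted p = 0.192). STARD4, a carrier of cholesterol between membranes, gave 0.09 (limma adjusted p = 0.211). By their brightest probe sets, these 8 genes thus lay between -0.09 and 0.18.

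The fatty acid arm held the larger changes. At its entry the suppliers of acetyl-CoA and NADPH were not called: ATP citrate lyase, ACLY, gave -0.07 (95% interval -0.16 to 0.02), acetyl-CoA synthetase, ACSS2, gave 0.03 (-0.09 to 0.16) and malic enzyme, ME1, gave -0.02 (-0.16 to 0.13). The ME1 probe sets disagree in size: a second gave -0.25 (95% interval -0.47 to -0.03; limma adjusted p = 0.143) and a dim one -0.05. The next step, carboxylation of acetyl-CoA to malonyl-CoA, commits carbon to fatty acids. ACACA, the cytosolic carboxylase, rose, with values of 11.05, 10.99, 10.96 and 11.05 on the YAP shRNA arrays against 10.77, 10.64, 10.71 and 10.57 on the control shRNA arrays. The groups were well apart, and the log2 fold change was 0.34, a 1.26-fold rise (SE 0.0517; limma adjusted p = 0.00277). The second ACACA probe set gave 0.04 and was not called, so the probe sets of this gene disagree in size, and their mean gave 0.19. ACACB, the mitochondrial-surface carboxylase whose malonyl-CoA restrains fatty acid oxidation, gave 0.0076 (95% interval -0.10 to 0.12).

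FASN, the synthase that builds palmitate, was higher on every YAP shRNA array, at 8.05, 8.14, 8.11 and 8.35, than on any control shRNA array, at 7.95, 7.91, 8.02 and 7.85. Its log2 fold change of 0.23 did not pass (SE 0.0705; limma adjusted p = 0.0633). It passed in 3 of 16 alternative settings.

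Palmitate is then elongated by ELOVL6, palmitate and stearate are desaturated by SCD, and both genes rose. SCD stood at 12.80, 12.79, 12.76 and 12.79 on the YAP shRNA arrays, against 12.50, 12.47, 12.48 and 12.20 on the control shRNA arrays. The YAP shRNA arrays lay close together, while control shRNA replicate 4 lay far below the other control arrays. The rise was 1.30-fold (log2 fold change 0.37, SE 0.0678; limma adjusted p = 0.00619), or 0.30 in log2 without that array (limma adjusted p = 0.000715). The other SCD probe sets gave 0.38, 0.18 and 0.18.

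ELOVL6 stood at 12.15, 12.17, 12.09 and 12.13 on the YAP shRNA arrays, against 11.94, 11.83, 11.92 and 11.65 on the control shRNA arrays. Replicate 4 was again the lowest control array. The log2 fold change was 0.30 (SE 0.0666; limma adjusted p = 0.0160), or 0.24 without that array (limma adjusted p = 0.00689), and the other probe sets gave 0.53 and 0.27. The call was lost in 3 of 17 alternative settings, among them the one without YAP shRNA replicate 2 (limma adjusted p = 0.05002).

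ELOVL5, which elongates polyunsaturated fatty acids, fell. It stood at 12.26, 12.27, 12.33 and 12.10 on the YAP shRNA arrays, against 12.48, 12.45, 12.46 and 12.54 on the control shRNA arrays. The groups did not overlap, and the log2 fold change was -0.24 (SE 0.0544; limma adjusted p = 0.0162). The call was lost in 3 of 17 alternative settings, and the mean of its probe sets gave -0.14 (limma adjusted p = 0.0747). Its other probe sets gave -0.21 and, for a dim pair, -0.16 and 0.06. FADS2, a desaturase of the same polyunsaturated branch, gave 0.05 (95% interval -0.06 to 0.15) at a level of 6.45 with YAP shRNA and 6.40 with control shRNA.

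The measured acyl-CoA synthetases of the list, which activate free fatty acids, both fell. ACSL4, which prefers arachidonate and related polyunsaturated acids, stood at 11.61, 11.52, 11.58 and 11.46 on the YAP shRNA arrays, against 11.95, 11.81, 11.83 and 11.98 on the control shRNA arrays. Each YAP shRNA array lay below each control array, and the fall was 1.27-fold (log2 fold change -0.35, SE 0.0555; limma adjusted p = 0.00340). Its other probe sets, both dim, gave -0.37 and -0.17 and were not called, and the ACSL4 call was lost in 2 of 17 alternative settings. ACSL1 stood at 9.97, 9.92, 9.98 and 9.92 on the YAP shRNA arrays, against 10.25, 10.10, 10.13 and 10.13 on the control shRNA arrays. These groups did not overlap either, the log2 fold change was -0.20 (SE 0.0450; limma adjusted p = 0.0159), and the second probe set gave -0.23. The ACSL1 call was lost in 4 of 17 alternative settings, among them those without YAP shRNA replicate 2 or 4 (limma adjusted p = 0.0531 and 0.0508).

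LPIN1, a phosphatidate phosphatase on the way to triglyceride and also a transcriptional coregulator, rose most in this arm. It stood at 11.26, 11.28, 11.27 and 11.34 on the YAP shRNA arrays, against 10.97, 10.87, 10.94 and 10.64 on the control shRNA arrays. As for SCD and ELOVL6, the YAP shRNA arrays were close together and control shRNA replicate 4 was the lowest. The rise was 1.35-fold (log2 fold change 0.43, SE 0.0723; limma adjusted p = 0.00421), or 0.36 in log2 without that array (limma adjusted p = 0.00100). Its other probe sets gave 0.36 and, for a dim one, 0.10. GPAM, the mitochondrial acyltransferase that starts glycerolipid synthesis, gave 0.05 (95% interval -0.08 to 0.17).

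**Figure D3:**
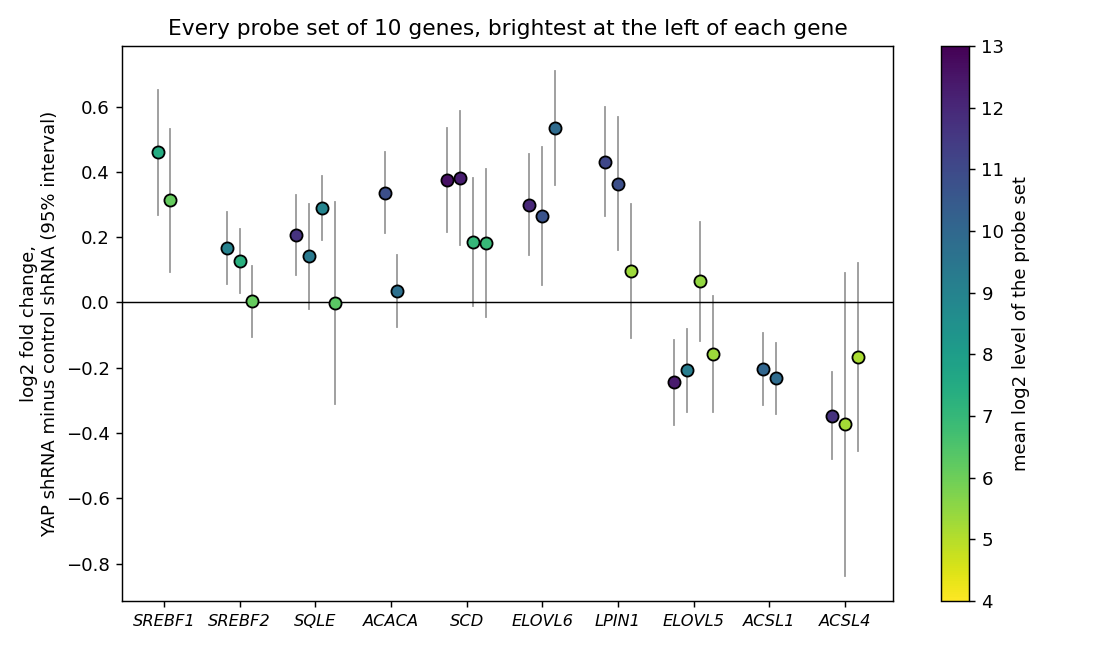
Log2 fold change (YAP shRNA minus control shRNA, y axis) with its 95% interval for every probe set of the 10 called genes that have more than 1, coloured by the mean log2 level of the probe set and ordered from bright to dim within each gene. The brightest probe sets lie close together for SCD at 0.37 and 0.38 and for LPIN1 at 0.43 and 0.36, while the second ACACA probe set lies at 0.04 and most dim probe sets have wide intervals that include 0.

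Other genes of lipid metabolism were taken from lists made by role, and no list was tested as a set. Over all genes 16.7% were called, and 26.6% of those at or above the median level. Called shares were 22.2% for further sterol genes, 46.2% for sterol uptake, export and storage and 27.3% for further fatty acid genes. They were 18.8% for glycerolipid and droplet genes and 26.7% for fatty acid oxidation. Of 9 measured further genes of sterol synthesis and its control, 2 rose and 0 fell. INSIG2, the paralog of INSIG1, stood at 11.74 ± 0.0270 with YAP shRNA and 11.39 ± 0.0273 with control shRNA (SD, n = 4 each), a log2 fold change of 0.34 (limma adjusted p = 0.000374). GGPS1, which diverts isoprenoids to geranylgeranyl diphosphate, rose by 0.23 (limma adjusted p = 0.00701). Both calls were kept in all 17 alternative settings.

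Of 13 genes of sterol uptake, export and storage, 5 rose and 1 fell, with a median of 0.15. LRP8, a receptor of the LDL receptor family, stood at 10.42 ± 0.0513 with YAP shRNA and 9.85 ± 0.123 with control shRNA (SD, n = 4 each), a 1.49-fold rise (limma adjusted p = 0.000571). The cholesterol exporter ABCA1 rose by 0.33 (limma adjusted p = 0.0113) and MYLIP, a ubiquitin ligase for LDL receptor family proteins, by 0.31 (limma adjusted p = 0.0175), each lost in 4 of 17 alternative settings. ABCA1 and MYLIP are known targets of the sterol-sensing liver X receptors. ABCG1, another such target, and NR1H3, a gene for such a receptor, were not called. They gave 0.24 and 0.15 (limma adjusted p = 0.366 and 0.230). The mean of the ABCA1 probe sets gave 0.19 (limma adjusted p = 0.0810), and a part of these receptors was not tested. NPC1, which passes cholesterol out of lysosomes, fell by 0.30 (limma adjusted p = 0.00471). Over the genes of its chromosome, 18, the median was -0.04.

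Of 22 further genes of fatty acid synthesis, 4 rose and 2 fell. ACSL5, another acyl-CoA synthetase, stood at 12.12 ± 0.0446 with YAP shRNA and 11.55 ± 0.0736 with control shRNA (SD, n = 4 each), a 1.48-fold rise (limma adjusted p = 0.000152), so that genes of this enzyme family changed in both directions. MID1IP1, which promotes polymerisation of acetyl-CoA carboxylase, rose by 0.42 (limma adjusted p = 0.00110) and MECR, a mitochondrial enoyl reductase, by 0.23 (limma adjusted p = 0.0131). The elongase gene ELOVL7 fell to 10.85 ± 0.0467 with YAP shRNA, against 11.39 ± 0.0516 with control shRNA (SD, n = 4 each; log2 fold change -0.54, limma adjusted p = 0.000118). SCD5, the second human stearoyl desaturase, fell by 0.52 (limma adjusted p = 0.00631), opposite to SCD, but the mean of its probe sets gave -0.13 (limma adjusted p = 0.251).

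Of 16 genes of glycerolipid synthesis and lipid droplets, 2 rose and 1 fell. DGAT1, which completes triglyceride, rose by 0.45 (limma adjusted p = 0.00184) and GPAT4, a microsomal acyltransferase, by 0.23 (limma adjusted p = 0.00202). Like SQLE, both lie on chromosome 8. GPAT3 fell by 0.17 (limma adjusted p = 0.0303), a call lost in 7 of 16 alternative settings. Of 15 genes of fatty acid oxidation and its receptors, 3 rose and 1 fell. The largest change was in PPARG, better known for lipid storage than for oxidation, which stood at 10.26 ± 0.0608 with YAP shRNA and 9.40 ± 0.133 with control shRNA (SD, n = 4 each), a 1.82-fold rise (limma adjusted p = 0.000119). HADH and CPT2, which act within the mitochondrion, each rose by 0.25 (limma adjusted p = 0.00779 and 0.00968), the CPT2 call being lost in 2 of 17 alternative settings, and the medium-chain dehydrogenase gene ACADM fell by 0.27 (limma adjusted p = 0.00547).

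**Figure D4:**
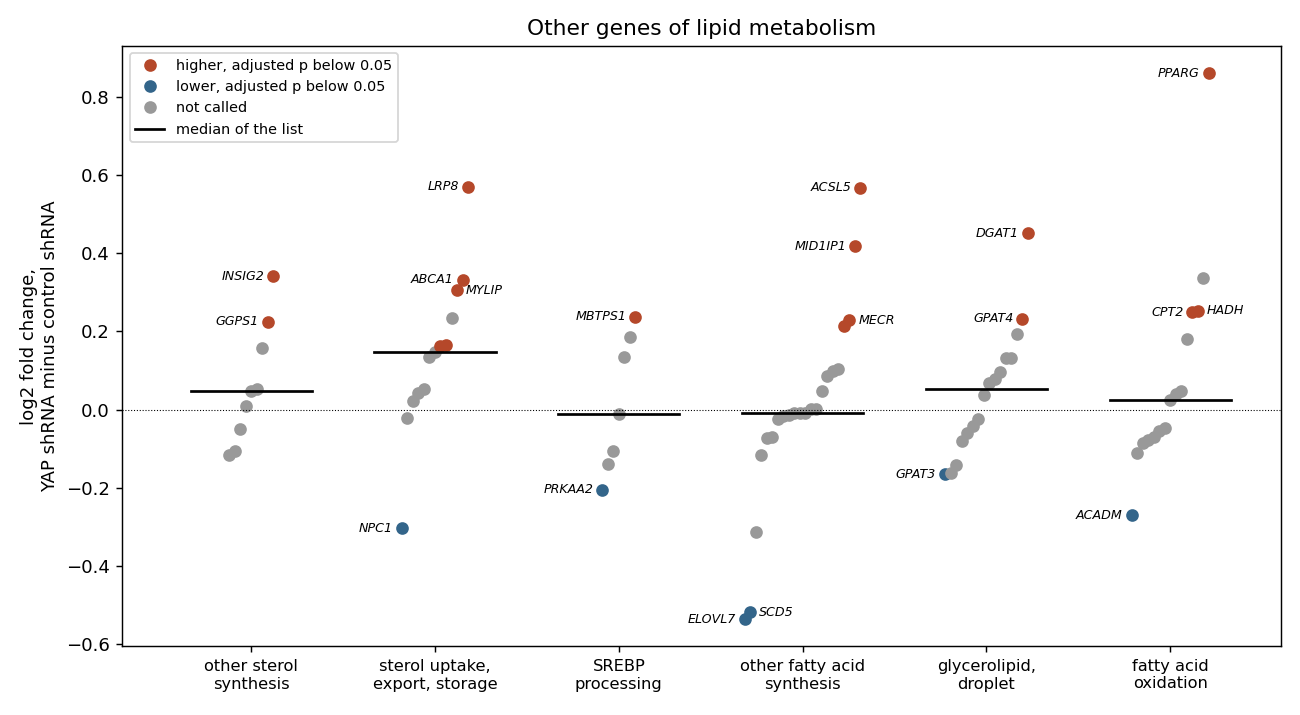
Log2 fold change (YAP shRNA minus control shRNA, y axis) of each measured gene in 6 lists of lipid metabolism, with the median of each list as a bar; red genes rose, blue genes fell and grey genes were not called (limma adjusted p below 0.05, n = 4 arrays each). Most genes lie near 0, with PPARG highest at 0.86 and ELOVL7 lowest at -0.54.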

How the data were processed

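RNA from 4 YAP shRNA and 4 control shRNA samples was amplified with a NuGEN kit and biotin-labelled, per the labels' protocols. The authors deposited 1 log2 value per probe set and array for 54675 probe sets; the log base was inferred from the range of 1.72 to 14.9. How the values were background-corrected, summarised and normalized is not given in the sources used here. Array medians lay between 6.22 and 6.25, so nothing further was normalized. GEO's platform annotation named 1 gene for 41097 probe sets, several genes for 1801 and no gene for 11777. RefSeq (GRCh38.p14) held the Entrez ID of 41043, with 0 changed symbols.

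The fit was limma 3.58.1 in R 4.3.3 (lmFit and eBayes, no block, no filter), with Benjamini-Hochberg adjustment over all 19775 genes. For 17 members without overlap, the two-sided exact permutation p was 0.0286, the smallest that 4 against 4 arrays allow; the number of arrays limits the precision. In a simulation of YAP shRNA against control shRNA with 19775 genes, 66, 67 and 67 genes were changed by 0.3, 0.5 and 1 log2. Of these, 43.9%, 62.7% and 98.5% were recovered, with 7 unchanged genes called. In the real data 3294 genes were called. The adjustment depends on how many genes change, so these shares need not hold for the real comparison. The members and lists were chosen with earlier results of these data known. Regulators and called members are given array by array, other members by value, and up to 3 called genes per direction from each list. Alternatives were other scalings, filters, probe set rules, spread models, array weights, a stricter threshold, the replicate number as a block, and leaving out single arrays. The share called among genes at or above the median level was added after the data were seen. Figures used matplotlib 3.10.9.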

Additional observations from a re-analysis of the deposited data

Results flagged for a closer look

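In 72 groups of 4 arrays, for the 35 members and YAP1 in both groups, 1 array stood far outside its group in 8 cases. About 3.6 such cases would arise by chance, and control shRNA replicate 4 was the array in 4 of them. That array was low for SCD at 12.20 (12.47 to 12.50 on the other control arrays) and for ACACB at 8.76 (8.92 to 8.94), and high for SQLE at 11.69 (11.54 to 11.55) and for SC5D at 11.17 (10.94 to 10.97). Control shRNA replicate 1 was high for FADS2 at 6.44 (6.39 on the others), and control shRNA replicate 3 was high for YAP1 at 12.77 (12.59 to 12.61). YAP shRNA replicate 4 was low for ACLY at 11.90 (12.00 to 12.01), and YAP shRNA replicate 2 for ACSS2 at 8.40 (8.46 to 8.47).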

How the results depend on the processing

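Over 17 alternative settings, SREBF1, ACACA, SCD and LPIN1 kept their calls wherever they were measured, and no called member changed sign. Of 185 values of the 11 called members, 152 stayed past the threshold and 33 did not; 7 of the 11 kept their calls with every single array left out. Of the 24 members not called, 10 values passed under an alternative, and 11 members, the largest of them at 0.07, changed sign in at least 1 setting.

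The sterol count higher, 1 as reported, was 0 with median centring and at an adjusted p below 0.01, 3 without dim genes and with array weights, 2 with an intensity trend, and 0 to 2 with single arrays left out. The sterol count lower, 1 as reported, was 0 without _x_at and _s_at probe sets (ACAT2 has no other), with the replicate block and at 0.01, and 1 with each array left out. The fatty acid count lower, 3 as reported, was 1 with the mean of probe sets, with the replicate block and at 0.01, and 2 to 3 with arrays left out. The fatty acid count higher, 4 as reported, was 5 without dim genes, with the mean of probe sets and with an intensity trend, and 3 to 4 in the other settings and with arrays left out. The sterol median was 0.031 with quantile normalization, 0.012 with median centring, 0.069 with the mean of probe sets, 0.038 without _x_at and _s_at probe sets, 0.035 with array weights and 0.035 to 0.065 with arrays left out. The fatty acid median was -0.0090, 0.0072, 0.0050 and -0.016 under the first 4 of these and 0.024 to 0.046 with arrays left out, so its sign is not settled. Of all genes, 3294 were called, 2106 with the replicate block, 1785 at 0.01 and 2381 to 3881 with arrays left out; YAP1 then stood at -2.16 to -2.10. Same-numbered arrays showed no shared deviation (correlations of -0.206 to 0.0020). Whether the numbers mark paired samples cannot be told from this. The causes of these shifts were not tested.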
